A study of Mus musculus with 9 samples.

Results

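Synovial fibroblasts cultured from paws that had received monosodium urate (MSU) crystals on day 9 only, called non-primed in the labels, were compared with fibroblasts cultured from paws with no injection, called naive. The comparison uses 6 of the 9 libraries of the series, 3 per group, and the rule that defined it took genes with a mean rlog value of at least 3 over these 6 libraries, which left 15640 of 47729 genes. All mice were BALB/c and wild type, the labelled time point was day 18, and the cells had been cultured for 5 passages. The non-primed cultures came from right paws of mice whose left paws were injected on days 0 and 9, per the labels' protocols, so an effect of the paw's own injection and an effect of the other paw's injections cannot be told apart. The side of the naive paws and the animal behind each culture are not given, so p-values measure the spread between these cultures only. The 3 primed libraries, from the left paws, entered the fit for the shared estimate of the spread and are described where they bear on a gene. The fit treats right and left paws as independent, although some may come from the same mouse.

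Synovial fibroblasts line the joint cavity and make up its supporting tissue. They secrete lubricin, hyaluronan, collagens and, when stimulated, matrix proteases and chemokines. MSU crystals are the deposits of gout and provoke an acute, self-limiting inflammation. Cells that sense low oxygen stabilise the transcription factor HIF1A, which is otherwise hydroxylated by the EGLN enzymes and degraded, and HIF1A then raises genes for glucose uptake, glycolysis, lactate and proton export, mitophagy and collagen hydroxylation. The same targets also respond to HIF1A stabilised by inflammatory or metabolic signals under normal oxygen.

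All values are the authors' rlog values, a depth-scaled and shrunken log2 scale on which differences of weakly expressed genes are understated. The depth of the libraries is unknown. The naive libraries varied most: the median SD of a gene between replicates was 0.225 in naive and 0.103 in non-primed libraries, and the naive SD was the larger for 82.0% of genes. In the principal components of the 9 libraries, naive 3 lay at the end of the axis with 38.0% of the variance and naive 2 at the end of the next, with 30.6%. The cultures carried fibroblast markers throughout. Col1a2, a chain of type I collagen, lay between 15.01 and 16.05 in the 6 libraries, and Pdgfra, the receptor for platelet-derived growth factor, between 14.96 and 16.25. Of the 14 fibroblast markers 8 were higher and 6 lower in non-primed cultures, and 0 passed the test. Lymphocyte markers were absent from the test: none of the 11 reached the filter, and Cd3e, Cd3g, Cd8a, Cd79b and Klrb1c were listed at 0 in all 6 libraries. In bulk samples, fewer cells of a type and less RNA per cell cannot be told apart.

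A total of 22 genes differed between non-primed and naive cultures, 18 higher and 4 lower (limma, adjusted p between 0.0305 and 0.0486, Benjamini-Hochberg). They made up 0.141% of the genes tested, 0.115% higher and 0.0256% lower. Genes that rose included HIF1A targets (Car9, Bnip3, Pdk1, Egln1), the lactate exporter Slc16a3, the lysosomal proton pump gene Atp6v1b2 and the fucosidase gene Fuca2. A set best known from epithelia (Perp, Krt7, Aqp5, Cdh17) rose as well. The genes that fell were Esm1, Thbs3, Ltbp3 and Slc25a12. The absolute differences ran from 0.46 to 3.38, with a median of 0.97. In all, 499 genes differed by at least 1, of which 367 were higher and 132 lower, and 11 of these passed the test. The 3 non-primed values lay entirely above the 3 naive values for 11.5% of the tested genes and entirely below for 10.3%.

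**Figure D1:**
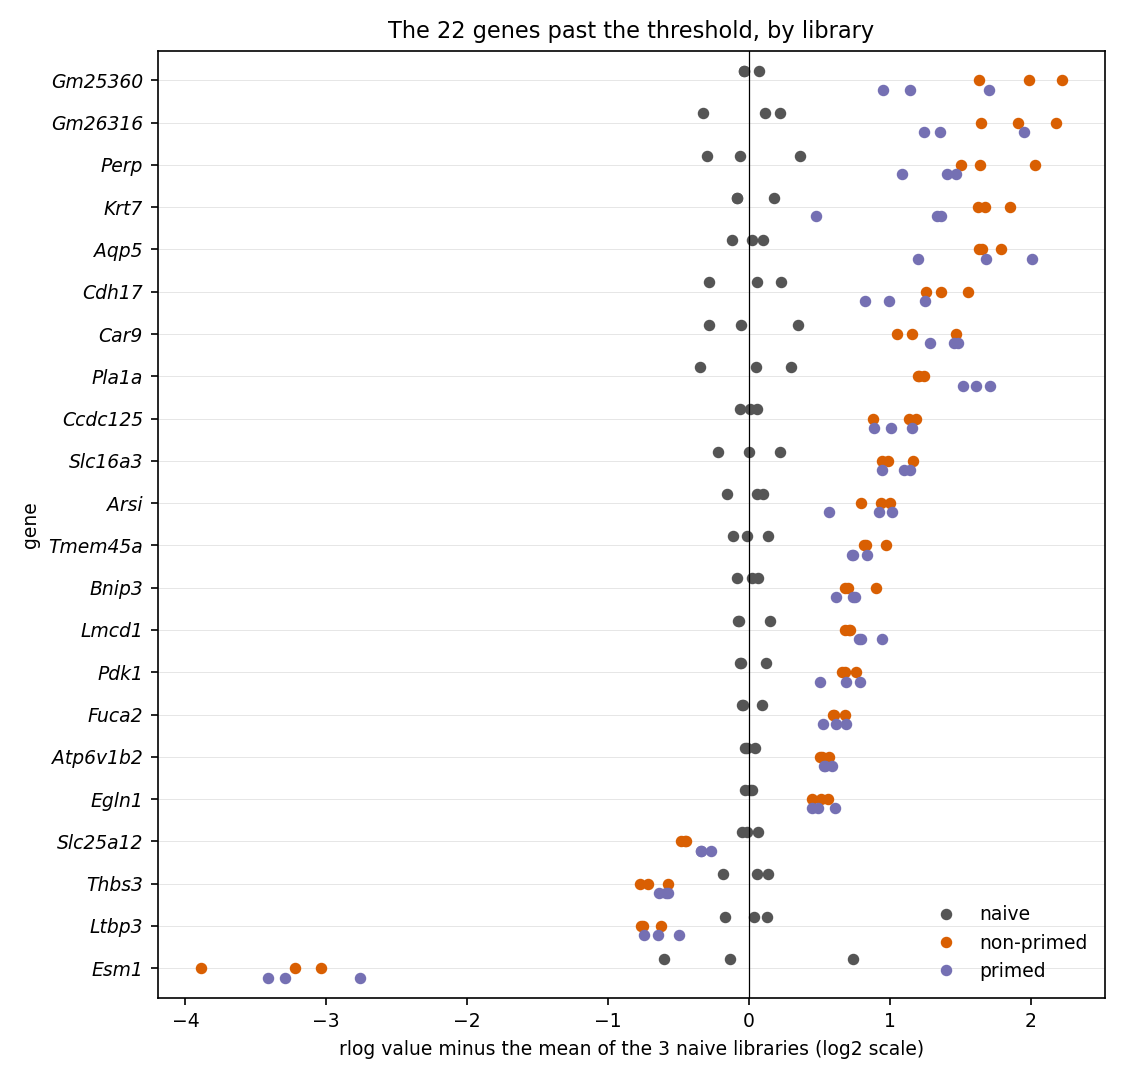
Each point is the rlog value of 1 library minus the mean of the 3 naive libraries for the same gene (x axis, log2 scale), for the 22 genes past the threshold (y axis, ordered by difference), with naive libraries in grey, non-primed in orange and primed in purple. The non-primed points of each gene lie apart from its naive points, Esm1 stands furthest to the left at a mean of -3.38, and the primed points lie on the same side as the non-primed ones.

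Among the genes of the oxygen response, Egln1, the hydroxylase that marks HIF1A for degradation and is itself a HIF1A target, stood at 11.58, 11.54 and 11.59 in naive 1 to 3 and at 12.02, 12.13 and 12.08 in non-primed 1 to 3. Both groups were tight and lay far apart relative to their spread. It rose by 0.51 (SE 0.07, adjusted p = 0.0484, limma). Hif1a itself stood at 13.93, 14.31 and 13.97 in naive and at 14.83, 14.87 and 14.98 in non-primed cultures. The groups did not overlap, but the difference of 0.82 (SE 0.13) did not pass the threshold (adjusted p = 0.0580, limma). Of the 7 tested genes of the oxygen-sensing list, which also holds the partner subunits and the other hydroxylases, 3 were higher and 4 lower, 0 passed, and Epas1, the sister subunit, overlapped between groups with a difference of -0.61 (SE 0.37). Hif3a was below the filter.

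Car9, the membrane carbonic anhydrase that disposes of acid outside the cell (chromosome 4, 43506966 to 43513729, GRCm38), stood at 9.13, 9.76 and 9.36 in naive and 10.47, 10.88 and 10.57 in non-primed libraries. It rose by 1.22 (SE 0.17, adjusted p = 0.0484, limma). Slc16a3, which exports lactate together with a proton (chromosome 11, 120948480 to 120960868), stood at 11.74, 11.52 and 11.30 in naive and 12.46, 12.68 and 12.51 in non-primed libraries. It rose by 1.03 (SE 0.12, adjusted p = 0.0305, limma). Every non-primed value of both genes lay above every naive value. Slc16a1, the other lactate transporter of the list, overlapped between groups (difference 0.07, SE 0.22).

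Bnip3 and Pdk1, which act on mitochondria, rose as well. Bnip3, an outer membrane receptor for mitophagy (chromosome 7, 138890836 to 138909519), stood at 11.65, 11.61 and 11.51 in naive and 12.29, 12.27 and 12.49 in non-primed cultures, a rise of 0.76 (SE 0.09, adjusted p = 0.0305, limma). Pdk1, the kinase that shuts pyruvate out of the citric acid cycle (chromosome 2, 71873224 to 71903858), stood at 11.28, 11.46 and 11.29 against 12.01, 12.02 and 12.10, a rise of 0.70 (SE 0.09, adjusted p = 0.0437, limma). Fam162a, a mitochondrial protein of the hypoxic response, and Higd1a, which modulates the respiratory chain under low oxygen, had differences of 0.71 (SE 0.11) and 0.54 (SE 0.08) without overlap but short of the threshold (adjusted p = 0.0580 each, limma). Bnip3l, the close relative of Bnip3, overlapped between the groups at a difference of 0.11 (SE 0.11).

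The other HIF1A targets are described by role. All 28 members of the list were tested: 27 were higher, where 51.5% of all tested genes were. A total of 4 rose past the threshold and 0 fell, beside 0.115% and 0.0256% of all tested genes. At an unadjusted p below 0.05, 17 were higher, beside 8.53% of all genes. The groups did not overlap in 19 members, all higher, beside 11.5% of all genes. The median difference of the list was 0.53, against 0.0083 over all tested genes. Of the secreted products, Adm, which encodes the vasodilator adrenomedullin, stood at 12.88 to 13.25 in naive and 13.57 to 13.63 in non-primed cultures, and Vegfa, the angiogenic growth factor, at 10.88 to 11.08 and 11.42 to 11.49. Of the collagen-modifying enzymes, the prolyl hydroxylase subunit P4ha2 stood at 12.30 to 13.22 and 13.74 to 13.96, and the crosslinking enzyme Lox at 15.52 to 16.29 and 16.59 to 16.93. None of these 4 passed the test. Plod2, a lysyl hydroxylase and the single member with a lower mean, overlapped between groups (-0.15, SE 0.24). Egln3 stood at 6.64 to 7.04 and 7.52 to 7.82 (adjusted p = 0.0835, limma), and the transcription regulators Bhlhe40 and Mxi1, the ankyrin protein Ankrd37 and the histone demethylase Kdm3a had differences between 0.05 and 0.17.

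HIF1A binds a hypoxia response element whose core reads ACGTG or GCGTG. RefSeq promoter windows on GRCm38.p6, from 250 bases before to 50 after a start, were searched for these letters on both strands. Sequences of 4 genes that rose, and of Esm1, which fell, are shown to let the cores be seen in place; bases annotated as exons in GENCODE M21 are left out, each runs 5′ to 3′ on the gene's strand, and capitals mark the cores, read CACGT or CACGC where they lie on the other strand.
Bnip3, chr7:138909520-138909756, minus strand: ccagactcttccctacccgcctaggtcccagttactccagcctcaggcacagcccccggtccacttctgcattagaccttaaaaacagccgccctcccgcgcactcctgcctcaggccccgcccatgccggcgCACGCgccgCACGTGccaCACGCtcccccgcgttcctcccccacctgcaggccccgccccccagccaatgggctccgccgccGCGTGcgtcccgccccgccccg
Egln1, chr8:124949325-124949504, minus strand: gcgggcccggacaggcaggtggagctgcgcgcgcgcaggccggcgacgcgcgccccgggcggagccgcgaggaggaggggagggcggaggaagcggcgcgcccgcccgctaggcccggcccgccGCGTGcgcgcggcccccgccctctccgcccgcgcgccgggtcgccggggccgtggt
Pdk1, chr2:71872974-71873223, plus strand: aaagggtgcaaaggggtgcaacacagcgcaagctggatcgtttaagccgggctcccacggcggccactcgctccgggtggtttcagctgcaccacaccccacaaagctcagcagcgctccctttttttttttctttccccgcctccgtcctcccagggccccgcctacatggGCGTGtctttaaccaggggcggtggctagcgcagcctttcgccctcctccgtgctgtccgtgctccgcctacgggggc
Slc16a3, chr11:120948817-120949052, plus strand: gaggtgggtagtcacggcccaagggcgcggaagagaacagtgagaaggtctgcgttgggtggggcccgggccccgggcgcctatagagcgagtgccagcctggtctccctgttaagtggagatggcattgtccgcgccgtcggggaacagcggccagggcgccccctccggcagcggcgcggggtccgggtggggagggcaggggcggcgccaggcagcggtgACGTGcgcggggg
Esm1, chr13:113209409-113209658, plus strand: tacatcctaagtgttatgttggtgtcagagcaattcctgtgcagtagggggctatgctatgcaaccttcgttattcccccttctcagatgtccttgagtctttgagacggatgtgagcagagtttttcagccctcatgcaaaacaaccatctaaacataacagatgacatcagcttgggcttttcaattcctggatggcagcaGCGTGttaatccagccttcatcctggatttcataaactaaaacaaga

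The printed Bnip3 stretch holds 5 cores, 2 of which are the same palindrome CACGTG read on either strand, which is also an E-box. The Egln1, Pdk1, Slc16a3 and Esm1 stretches hold 1 each. Among other genes that rose, not printed here, the same kind of stretch holds 0 cores in Car9, Fuca2 and Ccdc125. It holds 1 in Tmem45a and 2 in Lmcd1. The Slc16a3 stretch lies before a RefSeq start inside the gene, downstream of the gene's first base in GENCODE. A core stood in the windows of 8 of the 11 matched genes that rose, 2 of the 4 genes that fell, 19 of 20 matched HIF1A targets and 16 of 19 matched genes of the glycolysis list. The share was 66.1% of the 11019 matched tested genes, 46.7% of all 27025 genes of the table and 43.8% of all 32851 windows, so the letters alone are common in promoters of expressed genes. A match is a description of the sequence and not a binding site.

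Glycolysis genes stood higher along most of the pathway. Of the 20 members of the list, 18 were higher, beside 51.5% of all tested genes, and 15 were higher without overlap, beside 11.5%. The median difference was 0.41, but Slc16a3 was the only member past the threshold, beside 0.115% of all tested genes called higher. Aldoc, an aldolase isoform, stood at 6.83, 7.08 and 6.42 in naive and 7.94, 8.27 and 7.92 in non-primed cultures, with a difference of 1.27 (SE 0.21, adjusted p = 0.0615, limma). Pgk1, which makes the pathway's initial ATP, stood at 12.89 to 13.34 and 13.85 to 14.14 (adjusted p = 0.0746, limma), and Eno1, an enolase, at 12.84 to 13.43 and 13.76 to 13.94. The glucose transporter Slc2a1 stood at 10.08 to 10.74 and 11.02 to 11.20, and Hk2, the inducible hexokinase, at 10.43 to 11.25 and 11.36 to 11.46. The separation was narrow for Hk2 and wider for Aldoc. Other isoforms overlapped between groups, among them the hexokinase Hk1 (0.05, SE 0.11), the muscle phosphofructokinase Pfkm (-0.02, SE 0.07) and the glucose transporter Slc2a3 (-0.12, SE 0.32). Reads of Gapdh, Aldoa, Eno1 and Pgk1 can be shared with processed pseudogenes, so their values are uncertain in that respect.

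**Figure D2:**
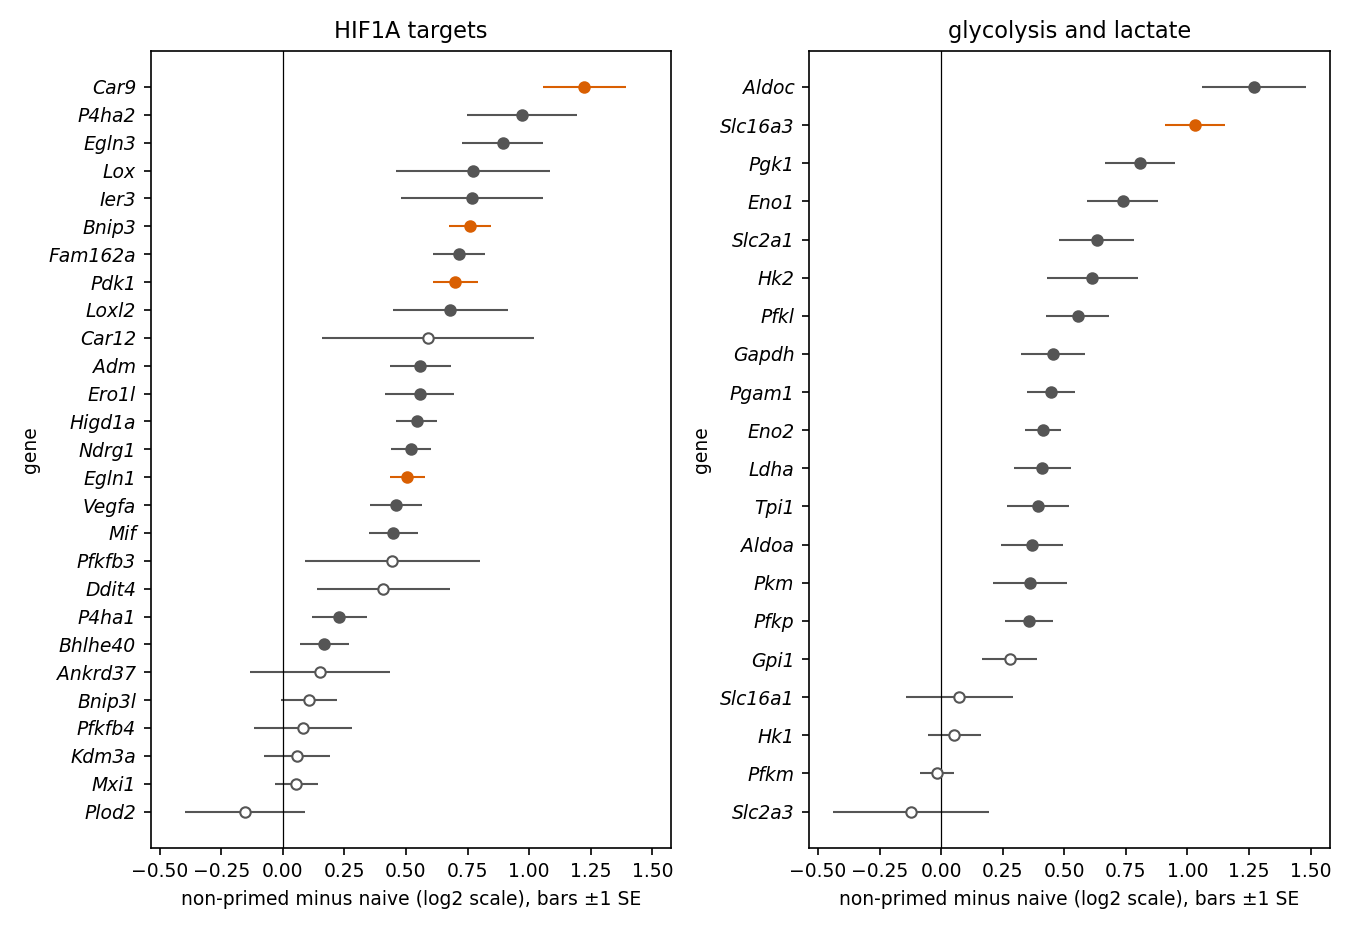
Points are the differences between non-primed and naive cultures on the log2 scale (x axis) with bars of 1 SE for 27 of the 28 HIF1A targets and the 20 glycolysis genes (y axis); orange marks genes past the threshold, filled grey genes whose groups did not overlap and open circles genes whose groups overlapped. Most of both lists lie right of 0, and Car9, Bnip3, Pdk1, Egln1 and Slc16a3 carry the orange mark.

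The mitochondrial side showed smaller differences. Of 19 genes of the citric acid cycle and respiratory chain, 14 were higher and 5 lower, and 0 passed. Their median of 0.07 was 0.007 without naive 2, 0.13 without naive 3, 0.03 without non-primed 2 and 0.19 with the mean of the macrophage markers as a covariate. Sdhb, a subunit of succinate dehydrogenase, had the smallest p of these, with a difference of 0.28 (SE 0.09). Among 12 mitochondrial carriers, 9 were higher and 3 lower. Slc25a12, the aspartate-glutamate carrier of the malate-aspartate shuttle, was the exception that passed: it stood at 11.11, 11.19 and 11.08 in naive and 10.64, 10.67 and 10.68 in non-primed cultures and fell by 0.46 (SE 0.06, adjusted p = 0.0484, limma). Slc25a22, a glutamate carrier, was also below naive without overlap (-0.38, SE 0.13) and did not pass, while Slc25a13, the paralogue of Slc25a12, had a difference of 0.21 (SE 0.16).

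A lysosomal proton pump subunit and a fucosidase were among the genes that rose. Atp6v1b2, a subunit of the proton pump that acidifies lysosomes, stood at 11.31, 11.36 and 11.29 in naive and 11.84, 11.89 and 11.83 in non-primed cultures, and rose by 0.53 (SE 0.06, adjusted p = 0.0305, limma). Fuca2, a fucosidase, stood at 10.95, 11.08 and 10.93 against 11.59, 11.58 and 11.67, and rose by 0.63 (SE 0.07, adjusted p = 0.0305, limma). The groups lay far apart relative to their spread in both genes. Neither is a member of the lysosome and autophagy list, of whose 22 genes 18 were higher, with a median of 0.15 and 0 past the threshold, and 9 were higher without overlap, beside 11.5% of all tested genes. Acid hydrolases were among its members with the smallest p, such as Gla, an alpha-galactosidase (0.49, SE 0.09), and Gusb, a glucuronidase (0.58, SE 0.15). The cholesterol carrier Npc2 overlapped between groups (-0.03, SE 0.11).

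A further set of risers is better known from epithelia than from fibroblasts. Perp, a desmosomal protein induced by p53 (chromosome 10, 18845020 to 18857073), stood at 7.81, 7.16 and 7.39 in naive and 9.48, 9.10 and 8.96 in non-primed cultures and rose by 1.73 (SE 0.20, adjusted p = 0.0305, limma). Krt7, a simple-epithelium keratin (chromosome 15, 101411043 to 101430313), stood at 4.21, 3.95 and 3.94 against 5.66, 5.71 and 5.89 and rose by 1.72 (SE 0.24, adjusted p = 0.0484, limma). Each lowest non-primed value was more than 1 above the highest naive value. Aqp5, a water channel of secretory glands, stood at 4.56 to 4.78 and 6.31 to 6.46 and rose by 1.69 (SE 0.20), and Cdh17, an intestinal cadherin, stood at 5.95 to 6.46 and 7.49 to 7.79 and rose by 1.39 (SE 0.18). The 14 genes of the epithelial and keratinocyte list include Perp and Krt7. Of these 14 genes 6 were tested, 4 higher and 2 lower, with a median difference of 0.60. Perp and Krt7 were the 2 past the threshold, both higher, beside 0.115% of all tested genes. They were also 2 of the 3 higher without overlap, beside 11.5% of all tested genes. The list counts and median are thus not independent of these 2 calls. Krt19, another simple-epithelium keratin, had a difference of 0.995 (SE 0.23) without overlap, short of the threshold. Among the 8 members below the filter, Krt14 was listed at 0 in all 6 libraries, and the means of Krt5, Cdh1 and Epcam in naive and non-primed cultures were -1.53 and -1.53, 0.53 and 0.56, and 2.67 and 2.87. The part of epithelial cells in these rises was not tested.

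The remaining rises came from genes of varied function. Tmem45a, a transmembrane protein, stood at 10.84, 10.98 and 10.73 in naive and 11.67, 11.69 and 11.82 in non-primed cultures and had the smallest p of all genes, with a rise of 0.87 (SE 0.09, adjusted p = 0.0305, limma). Pla1a, a phosphatidylserine-specific phospholipase, stood at 8.64, 8.39 and 7.996 against 9.54, 9.55 and 9.59 and rose by 1.22 (SE 0.15). Lmcd1, a LIM-domain regulator of GATA factors, rose by 0.70 (SE 0.08), Ccdc125 by 1.07 (SE 0.14) and Arsi, an arylsulfatase gene, by 0.91 (SE 0.13). The groups lay apart in each. The other calls were 2 predicted small nuclear RNA genes: Gm25360 rose by 1.95 (SE 0.20), and Gm26316, named after its values were seen, rose by 1.91 (SE 0.24). Mature small nuclear RNAs lack a poly(A) tail and often have close copies in the genome, so values from an mRNA library are uncertain for both.

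Esm1, the gene of the proteoglycan endocan (chromosome 13, 113209659 to 113218098), had the largest difference among the 22 genes. It stood at 9.40, 10.27 and 8.93 in naive and 6.31, 5.64 and 6.49 in non-primed cultures and fell by 3.38 (SE 0.36, adjusted p = 0.0305, limma). Its lowest naive value was more than 2 above its highest non-primed value, although the naive values spanned more than 1. Esm1 is best known from endothelial cells. Of the 12 endothelial markers 7 were tested, 4 higher and 3 lower, and 0 passed. Of these 7 markers 1 lay above and 1 below naive without overlap, beside 11.5% and 10.3% of all tested genes. The defining markers Pecam1, Kdr and Tek had differences of -0.47 (SE 0.31), 0.23 (SE 0.38) and 0.18 (SE 0.54), each with overlap, and Cdh5 was below the filter at means of 1.57 and 1.42.

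Thbs3, a thrombospondin of cartilage and tendon, stood at 11.54, 11.46 and 11.21 in naive and 10.63, 10.83 and 10.68 in non-primed cultures and fell by 0.69 (SE 0.10, adjusted p = 0.0484, limma). It overlaps Mtx1 on the other strand. Of 15 matricellular genes 10 were higher and 5 lower. In the opposite direction to Thbs3, 5 genes lay above naive without overlap, beside 11.5% of all tested genes. Among these, Postn, which encodes periostin, stood at 15.61 to 16.25 and 16.75 to 16.92, and Tnc, which encodes tenascin C, at 12.65 to 13.57 and 13.75 to 14.35, and Thbs4 had a difference of 1.22 (SE 0.35). None of the 5 passed the test.

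Ltbp3, which binds latent TGF-beta in the matrix, stood at 11.97, 12.27 and 12.18 in naive and 11.37, 11.52 and 11.38 in non-primed cultures and fell by 0.71 (SE 0.10, adjusted p = 0.0486, limma). Its 3 relatives were all below naive without overlap, but did not pass: Ltbp4 stood at 5.51 to 6.85 and 4.67 to 4.92, Ltbp1 at 12.10 to 12.40 and 11.69 to 11.76, and Ltbp2 at 13.04 to 14.04 and 12.71 to 12.95. Of the 22 genes of TGF-beta ligands, binders and receptors 18 were lower and 4 higher, with a median of -0.22 and 7 members below naive without overlap, where 10.3% of all genes were. Tgfb1, the ligand, differed by -0.32 (SE 0.14) and Tgfbr2, a receptor, by 0.31 (SE 0.09), neither past the threshold. The list median was -0.35 without naive 1, -0.02 without naive 3 and 0.05 with the mean of the macrophage markers as a covariate.

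Below Esm1, Slc25a12, Thbs3 and Ltbp3, another 6 genes with lower values came next by p, namely Fxyd1, Rarres2, Sox11, Acacb, Zfpm2 and Kif21a, each at adjusted p = 0.0580 (limma) and without overlap. Rarres2, the chemerin gene, stood at 9.99, 10.47 and 10.31 in naive and 9.23, 9.18 and 9.19 in non-primed cultures. Acacb, a regulator of fatty acid oxidation, stood at 9.45, 9.65 and 9.43 against 8.95, 8.93 and 8.93, and Sox11, a developmental transcription factor, at 5.83, 6.02 and 5.51 against 4.53, 4.24 and 4.25. Every non-primed value lay below every naive value in each of these 3 genes. The differences were -0.91 (SE 0.13) for Fxyd1, which regulates the sodium pump, -0.997 (SE 0.15) for Zfpm2, a cofactor of GATA factors, and -0.52 (SE 0.08) for the kinesin Kif21a.

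Among Wnt genes, 15 of 22 tested were lower and 7 higher, the median was -0.34, 9 lay below naive without overlap, beside 10.3% of all tested genes, and 2 above, beside 11.5%, and 0 passed. The receptor Fzd7 stood at 10.23 to 10.51 in naive and 9.76 to 9.78 in non-primed cultures (adjusted p = 0.0673, limma), and the ligand Wnt5a at 9.81 to 10.37 and 9.37 to 9.41. The receptors Fzd1 (-0.44, SE 0.12), Fzd8 (-0.62, SE 0.20) and Lrp6 (-0.57, SE 0.17) and the feedback target Axin2 (-0.56, SE 0.20) lay below naive as well. The ligand Wnt2b (1.17, SE 0.29) and the secreted antagonist Sfrp1 (1.00, SE 0.26) lay above without overlap.

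Matrix genes shared no common direction. Of the 19 collagen and elastic fibre genes 11 were higher and 8 lower, and 0 passed. Fbn2, a fibrillin, had the smallest p, at 8.67 to 9.46 and 10.35 to 11.43 (difference 1.85, SE 0.45), whereas Col1a1 overlapped between groups (0.29, SE 0.33). Of the proteases, the aggrecanase Adamts5 lay above naive (0.77, SE 0.18) and Adamts9 below it (-0.86, SE 0.22), both without overlap and short of the threshold. Mmp3, the stromelysin, was at 17.32, 19.48 and 16.39 in naive and 16.66, 16.13 and 16.75 in non-primed libraries. Its difference of -1.22 (SE 0.70) was -0.343 (SE 0.415) without naive 2, which had the high value, and -1.89 (SE 0.61) without naive 3. Mmp13, a collagenase, was also highest in naive 2 and overlapped between groups (0.85, SE 0.52).

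Skeletal, positional and layer markers gave 0 calls. Cnmd, which encodes the cartilage and tendon factor chondromodulin, stood at 9.99, 11.86 and 11.34 in naive and 8.37, 6.78 and 8.46 in non-primed cultures, a difference of -3.19 whose SE of 0.86 kept it short of the threshold (adjusted p = 0.164, limma). The bone gene Dmp1 also lay below naive without overlap (-1.73, SE 0.46). Of 7 tested chondrocyte genes 2 were higher and 5 lower, with a median of -0.45. Of 7 tested osteoblast genes 4 were higher and 3 lower, with a median of 0.07. In the osteoblast list 1 gene lay above and 2 below naive without overlap, beside 11.5% and 10.3% of all tested genes. Among defining cartilage and bone markers, Acan, Bglap and Sp7 were below the filter, and Col2a1 differed by -0.07 (SE 0.56). Of 16 tested limb and positional factors, 9 were higher and 7 lower. The distal factor Hoxd13 stood at 7.05 to 8.71 and 8.91 to 9.16, while Hoxa10 stood at 9.45 to 9.79 and 9.04 to 9.28. Prg4, the lubricin of the lining layer, ranged from 8.34 in naive 3 to 12.01 in naive 2 and overlapped (0.31, SE 0.79). Has1, a hyaluronan synthase, lay below naive without overlap (-0.80, SE 0.22), and Thy1, the sublining marker, overlapped (0.18, SE 0.27). Of the 9 lining markers 7 were higher and 2 lower, with a median of 0.305 that was -0.07 without naive 1. Of these 9 markers 1 lay above and 1 below naive without overlap, beside 11.5% and 10.3% of all tested genes. Of the 11 sublining markers 6 were higher and 5 lower. Pdpn, which encodes podoplanin, stood at 11.87 to 12.08 and 12.34 to 12.64 (adjusted p = 0.0818, limma).

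Inflammatory genes gave no call. Of 21 tested cytokine and chemokine genes 16 were higher and 5 lower, and the median was 0.59. In this list 8 genes lay above naive without overlap and 0 below, beside 11.5% and 10.3% of all tested genes. The monocyte chemokines Ccl8, Ccl7 and Ccl2 stood at 8.76 to 10.25, 11.94 to 12.23 and 11.43 to 11.94 in naive and at 11.33 to 11.87, 12.57 to 12.96 and 12.09 to 12.58 in non-primed cultures. The eosinophil chemokine Ccl11 stood at 5.19 to 5.82 and 7.195 to 7.46, yet its SE was 0.65. Il6 (0.45, SE 0.46) and Cxcl1 (-0.15, SE 0.35) overlapped, and Il1b was below the filter at means of 1.06 and 0.90. Of 13 tested inflammasome genes 10 were higher and 5 lay above naive without overlap, beside 11.5% of all tested genes. The differences were 1.34 (SE 0.37) for Nlrp1b and 1.33 (SE 0.45) for Casp1, and Nlrp3 overlapped at 1.13 (SE 0.54). C3, the central complement component, stood at 11.89, 13.31 and 11.21 in naive and 10.61, 10.81 and 10.95 in non-primed cultures (-1.35, SE 0.48, adjusted p = 0.241, limma), and C3ar1, the receptor of its fragment, stood at 6.72, 9.05 and 6.36 against 8.81, 9.34 and 8.97. Hmox1, the heme oxygenase, stood at 12.15 to 12.80 and 13.43 to 13.64, and Gclc, which makes glutathione precursors, at 10.71 to 11.72 and 10.23 to 10.53, neither past the threshold. With the macrophage marker mean as a covariate, the median for cytokines and chemokines was 0.34, and that of the inflammasome list was 0.08 in place of 0.43.

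Markers of macrophages, which synovial cultures can carry along, moved with these immune genes. All 15 macrophage markers were tested and higher, with a median of 1.68 and 0 past the threshold. Of the 15, 8 were higher without overlap, beside 11.5% of all tested genes. Ptprc, the pan-leukocyte antigen, stood at 7.13, 9.34 and 6.87 in naive and 9.75, 10.04 and 9.80 in non-primed cultures, and Adgre1, a surface marker of mouse macrophages, at 8.13, 10.80 and 7.69 against 10.57, 10.99 and 10.67. Naive 2 was therefore close to the non-primed libraries and naive 1 and 3 far below. The mean of the 15 markers was 7.40, 9.42 and 7.07 in naive 1 to 3 and 9.37, 9.90 and 9.48 in non-primed 1 to 3. The HIF1A target mean was 11.14, 11.16 and 11.05 in naive 1 to 3 and 11.60, 11.63 and 11.68 in non-primed 1 to 3. Over the naive cultures it had the order of the macrophage mean, naive 2 highest and naive 3 lowest, over a smaller range. Over the non-primed cultures the orders differed: the HIF1A target mean was highest in non-primed 3 and the macrophage mean in non-primed 2. With the macrophage mean as a covariate 0 genes passed, and none of the 22 calls was kept. The differences in that fit were 0.77 (SE 0.13) for Bnip3, 0.90 (SE 0.18) for Car9, 0.97 (SE 0.17) for Slc16a3, 2.06 (SE 0.24) for Perp and -3.80 (SE 0.49) for Esm1. Without the covariate the SEs of these genes were 0.09, 0.17, 0.12, 0.20 and 0.36. The macrophage mean largely followed the groups, with only naive 2 near the non-primed level. The fit therefore cannot separate macrophages from the groups, and larger SEs alone can remove calls. With the covariate the medians of the HIF1A target and glycolysis lists were 0.52 and 0.50.

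Other cell types left weaker traces. All 9 tested skeletal muscle genes, of 15 in the list, were higher without overlap, beside 11.5% of all tested genes. Myh1, a fast myosin (1.47, SE 0.46), and Acta1, the skeletal actin (1.45, SE 0.52), were among them. The median of the 9 genes was 0.94, and 0 of them passed the threshold. Their mean was 4.25 to 4.52 in naive and 4.88 to 5.94 in non-primed cultures, and the defining markers Ckm and Myh4 were below the filter. Of 11 tested Schwann and nerve genes 10 were higher with a median of 0.86, which was 0.41 without naive 3 and 0.57 with the macrophage covariate. Adipocyte genes leaned the other way: 8 of 9 tested were lower, with a median of -0.56, which was -0.30 without naive 2. Adipoq, which encodes adiponectin, stood at 8.64, 8.46 and 5.43 in naive and 5.20, 4.36 and 5.30 in non-primed cultures, so naive 3 lay beside the non-primed libraries. Scd1, a fatty acid desaturase, stood at 12.29 to 12.87 and 11.62 to 11.90 (adjusted p = 0.0935, limma). The pericyte marker Rgs5 lay below naive (-1.91, SE 0.63) and the endothelial Vwf above it (1.05, SE 0.25), both without overlap. Neither stood for its list. Of the 9 tested pericyte and smooth muscle genes 5 were higher and 4 lower, with a median of 0.59 that was -0.09 without naive 2. Of these 9 genes 1 lay above and 1 below naive without overlap, beside 11.5% and 10.3% of all tested genes. The 7 tested endothelial genes, 4 higher and 3 lower, had a median of 0.05. The part of these cells in the differences of other genes was not tested, and the macrophage covariate could not separate macrophages from the groups.

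**Figure D3:**
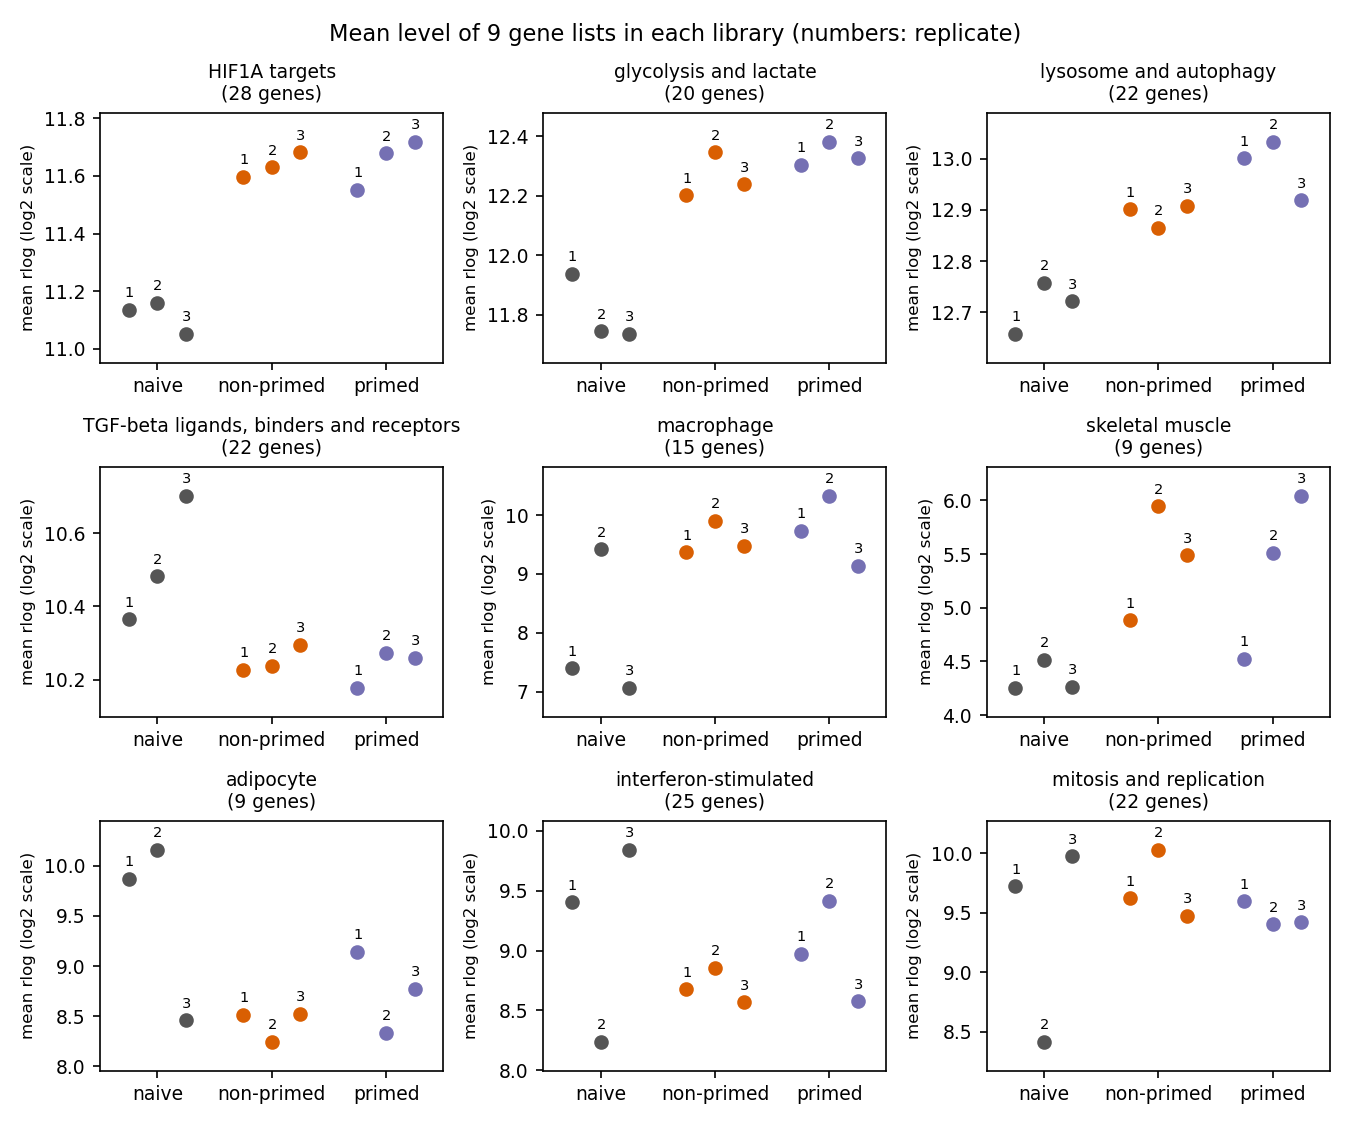
Each point is the mean rlog value (y axis, log2 scale, a separate range per panel) of the tested members of a gene list in 1 library, with the replicate number beside it, for naive (grey), non-primed (orange) and primed (purple) libraries. The HIF1A target, glycolysis and lysosome means of the 3 naive libraries lie together below the others, whereas naive 2 lies apart from naive 1 and 3 for macrophage, interferon and mitosis genes and naive 3 apart from naive 1 and 2 for adipocyte genes.

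In 5 lists of response and growth genes, the medians moved when 1 library was left out. Of 25 interferon-stimulated genes 23 were lower with a median of -0.39, but the list mean was 9.41, 8.24 and 9.84 in naive and 8.57 to 8.86 in non-primed cultures, and the median was -0.89 without naive 2, -0.09 without naive 3 and 0.23 with the macrophage covariate. All 22 mitosis and replication genes were higher with a median of 0.34, which turned to -0.15 when naive 2 was left out and was 0.54 and 0.69 when naive 1 or naive 3 was, and 0.20 without non-primed 2. Of 21 cholesterol synthesis genes 20 were lower, and the median of -0.15 was -0.41 without naive 2, 0.08 without naive 3, -0.23 without non-primed 1 and -0.09 without non-primed 2. The 24 ribosomal protein genes were all higher, 6 of them without overlap, beside 11.5% of all tested genes. Their median of 0.18 was 0.11 without naive 2 and 0.08 without non-primed 2. MHC class I genes had a median of -0.24, which was -0.05 without naive 1 and -0.37 without naive 3. None of the genes of these 5 lists passed the test. Immediate early genes, which report recent stimulation or handling, had a median of 0.39, and 0 of their 17 members passed.

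In the same fit, 0 of the 15640 genes differed between non-primed and primed cultures (limma, smallest adjusted p = 0.99986), and 200 (1.28%) reached an unadjusted p below 0.05. A fit with array weights gave 2134 calls, but it weighted non-primed 1 at 10.38 and primed 3 at 7.35. The other libraries of these groups had weights from 0.47 to 1.65, so those calls leaned on non-primed 1 and primed 3. Of the 22 genes, all 22 had their 3 primed values beyond the 3 naive values on the same side as the non-primed ones; both comparisons share the naive libraries. In 4 of the 22 the non-primed minus primed difference had an unadjusted p below 0.05. Pla1a was 9.56 ± 0.02 (SD, n = 3) in non-primed and 9.86 to 10.06 in primed cultures, a difference of -0.40 (SE 0.15). Krt7 stood at 4.51, 5.40 and 5.37 in primed cultures, below each non-primed value, a difference of 0.66 (SE 0.24). Slc25a12 stood at 10.78 to 10.86 in primed cultures, a difference of -0.14 (SE 0.06), and Gm25360 had a difference of 0.68 (SE 0.20). For Esm1 the difference was -0.23 (SE 0.36), for Car9 -0.18 (SE 0.17) and for Bnip3 0.06 (SE 0.09), all smaller than their differences from naive.

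The calls rested on few libraries. The number of genes was 0 without any 1 of the non-primed libraries or without primed 2, 1 without primed 3 and 47 without primed 1, where primed libraries enter only through the spread. It was 83, 355 and 269 without naive 1, naive 2 and naive 3. Of the 22 genes, 19 passed in each of the 3 fits without a naive library, the exceptions being Thbs3, Egln1 and Arsi. A total of 27 genes passed in all 3 of those fits. The 8 others included, named after their values were seen, Fam162a, the mitochondrial enzymes Ogdhl and Ak4, Rarres2, Zfpm2, Bcr and Fgfrl1. With the naive and non-primed libraries fitted alone 7 genes passed, 3 of them among the 22: Gm25360, Aqp5 and Krt7. Every one of the 22 genes kept its direction in each alternative that was run.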

How the data were processed

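RNA sequencing libraries of cultured synovial fibroblasts were analysed, 3 each from naive, non-primed and primed paws. Per the submitters' processing notes, the tools were STAR 2.5.4a, cutadapt 2.5, DESeq2, featureCounts and Subread 1.6.1, with the GRCm38 build; annotation release, strand and rlog settings: not given in the sources used here. Values deposited by the authors are rlog values on a log2 scale, so no count test was run and depth is unknown. Groups came from the titles, columns were matched by description, and no 2 libraries were identical. Of 47729 genes 19972 were at 0 throughout. Symbols and GENCODE M21 coordinates matched 47224 identifiers.

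Genes with a mean of at least 3 over the 6 naive and non-primed libraries were tested with limma 3.58.1 in R 4.3.3 (15640 genes, 12117 varying genes removed). All 9 libraries were fitted with 1 mean per group (6 residual degrees of freedom), a mean-variance trend and two-sided tests, with Benjamini-Hochberg adjustment and a threshold of 0.05. The fit was tested on simulated data with independent libraries and the same SD of a gene in all groups. The larger spread of the naive libraries and any shared mice were not simulated. The smallest two-sided p of an exact test with 3 libraries per group is 0.1, so groups without overlap were counted as a description.

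The 38 gene lists (603 genes, 543 tested) and the comparison were chosen with earlier results of these data known, and are described by counts and medians. Named genes were all called genes, the next lower genes up to 10, up to 4 members per list by p, the HIF1A target and glycolysis lists, cell markers and fixed genes, plus a few chosen after their values were seen, to show contrasts. A few genes are not reported here. Values of overlapping and antisense genes are uncertain because the strand setting is unknown. Alternatives covered samples, variance prior, weights, filter, scaling, replicate block, a macrophage covariate and each library left out.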

Additional observations from a re-analysis of the deposited data

How the results depend on the processing

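The count of 22 genes (18 higher, 4 lower) was 7 (7 higher, 0 lower) with the naive and non-primed libraries alone, 5 (4 and 1) without a variance trend, 13 (1 lower) with a robust prior, 613 (330 and 283) with array weights and 0 (0 and 0) with no filter or with the macrophage covariate. The array weights were 0.934, 0.298 and 0.133 for naive 1 to 3 and 10.378, 0.725 and 1.646 for non-primed 1 to 3, so that fit leaned on non-primed 1. Quantile normalisation left 15 genes, 2 of them lower. Leaving out 1 library gave 0 to 355 genes, 0 to 269 higher and 0 to 148 lower. Fits of the naive and non-primed libraries alone, chosen after the data were seen, gave 343 (289 and 54) without naive 2 and 340 (175 and 165) without naive 3. A replicate block gave 17 genes (0 lower), 5 of them among the 22. The deviations of naive and non-primed libraries with the same number correlated at 0.151, -0.16 and -0.116. With 3 libraries per group, such values cannot decide whether the numbers pair these libraries. Between non-primed and primed libraries, right and left paws that may share a mouse, same-number correlations were 0.418, 0.608 and 0.099. Non-primed 3 correlated better with primed 1 (0.275), and with the block 0 genes differed between these groups. The count between non-primed and primed was 2134 with array weights, which leaned on non-primed 1 and primed 3. It was 0 in the other fits that held primed libraries. The medians of the HIF1A target and glycolysis lists were 0.45 and 0.28 with array weights. Of 791 list medians under alternatives 49, in 16 of 36 lists, changed sign, none of them for the HIF1A target, glycolysis, lysosome, Wnt or macrophage lists. Of 483 values of the 22 genes under alternatives 236 no longer passed and 0 changed sign. The share of rising genes with a hypoxia core was 72.7% with CACGTG counted or not. The cause of these shifts was not tested, and unknown depth limits what can be said of weakly expressed genes.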
